A study of Homo sapiens with 14 samples.

Results

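The 10 genes described here encode the mTOR complexes and the TSC complex upstream of them: MTOR, RPTOR, RICTOR, MLST8, DEPTOR, AKT1S1, TSC1, TSC2, RHEB and RPS6KB1. They were chosen by name as parts of this pathway, with earlier results of these data known. All 10 had counts among the 59471 gene names listed, of which 39032 had a count in some library. RNA-seq was run on SCC23, an established head and neck squamous cell carcinoma (HNSCC) line, in 14 libraries. KMT2D-WT cells kept in glucose gave 3 libraries, KMT2D-KO cells kept in glucose gave 4, KMT2D-WT cells deprived of glucose for 6 h gave 3, and KMT2D-KO cells deprived of glucose for 6 h gave 4. The KMT2D-KO libraries come from 2 CRISPR/Cas9 lines, KO1 and KO2, which were grown from sorted cells and are not described as single-cell clones. Each condition was measured in experiment 1 (1 library each of KMT2D-WT, KO1 and KO2) and experiment 2 (2 libraries of KMT2D-WT and 1 each of KO1 and KO2). The question put to these libraries was what loss of the H3K4 methyltransferase KMT2D does to gene expression with and without glucose.

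The kinase mTOR works in 2 assemblies. In mTORC1 it is joined by Raptor (RPTOR), mLST8 and the inhibitory subunits DEPTOR and PRAS40 (AKT1S1), and this complex drives protein synthesis through substrates such as the S6 kinase RPS6KB1. In mTORC2 it is joined by Rictor (RICTOR) and mLST8, and this complex phosphorylates AKT. The TSC1/TSC2 complex holds mTORC1 down by acting as a GTPase-activating protein on RHEB, the small GTPase that activates mTORC1 at the lysosome, and energy shortage reaches TSC2 through AMPK. These are properties of proteins, whereas the values below are transcript levels.

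Library totals ranged from 15669154 to 62968057 counts. The highest totals were those of the 4 experiment 2 libraries with glucose, in which both mates of each pair were counted. Levels are given as counts scaled to a total of 1000000 per library (CPM) after TMM scaling, and for comparisons between genes as CPM per kb of exon. Epithelial markers EPCAM, CDH1, TP63 and KRT14 were detected in every library and KRT5 ranged from 1.51 to 225 CPM, whereas KRT6A did not exceed 1.13 CPM. Of 10 fibroblast, immune and endothelial markers, the immune markers PTPRC, CD3E and CD68 stayed under 0.291 CPM, and DCN, PDGFRB, VWF and PECAM1 stayed at or under 0.816 CPM. COL1A1 reached 16 CPM in the KMT2D-KO libraries against 6.92 CPM in KMT2D-WT, and CDH5 reached 4.11 against 1.14 CPM. COL1A2 reached 5.34 CPM in KMT2D-KO with glucose against 0.858 CPM in KMT2D-WT, and was at 0 in every KMT2D-KO library without glucose. The part of these markers in the results below was not tested.

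KMT2D itself had 266 to 279 CPM in the KMT2D-WT libraries with glucose. It had 182 and 184 CPM in the KO1 libraries and 323 and 373 CPM in the KO2 libraries, below KMT2D-WT in one line and above it in the other. A CRISPR/Cas9 edit need not lower the read count of its target, so these values do not by themselves check the labels. Without glucose the KO1 library of experiment 1 stood apart, at 19.9 CPM of KMT2D against 145 to 190 CPM in the other 3 KMT2D-KO libraries. The 2 KMT2D-KO libraries of experiment 2 without glucose were close to each other despite their labels. Over 2398 genes that differed between KO2 and KO1 with glucose, the median difference in that direction was 0.469 and 0.503 (log2) in the 2 experiments with glucose and 0.376 in experiment 1 without glucose, but 0.0036 between these 2 libraries. Over 9496 genes the difference between these 2 libraries had an SD of 0.0946 (log2). For KO1 and KO2 it was 0.387 and 0.400 with glucose and 0.595 in experiment 1 without. The lines are therefore compared only with glucose. The p-values without glucose count these 2 close libraries as separate.

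Per kb of exon, MLST8 and RHEB had the highest levels of the 10 genes, at 18.6 ± 8.56 and 18.4 ± 4.43 CPM per kb (mean ± SD, n = 14 libraries). MTOR at 15.1 ± 2.00 and AKT1S1 at 13.0 ± 1.83 CPM per kb followed. RPS6KB1 at 7.84 ± 2.16, RPTOR at 7.38 ± 1.73, TSC2 at 5.29 ± 1.53, TSC1 at 5.09 ± 1.29 and RICTOR at 3.55 ± 1.76 CPM per kb formed the lower range. The ranges of mean ± SD overlapped between neighbours in that order, except at the step from AKT1S1 to RPS6KB1 and at the step from RICTOR to DEPTOR. DEPTOR, an inhibitor of both complexes, was close to undetected, with 1 to 15 counts per library. The SDs include the difference between the experiments: RICTOR, RHEB and RPS6KB1 were lower in experiment 1, and MLST8 was higher.

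**Figure D1:**
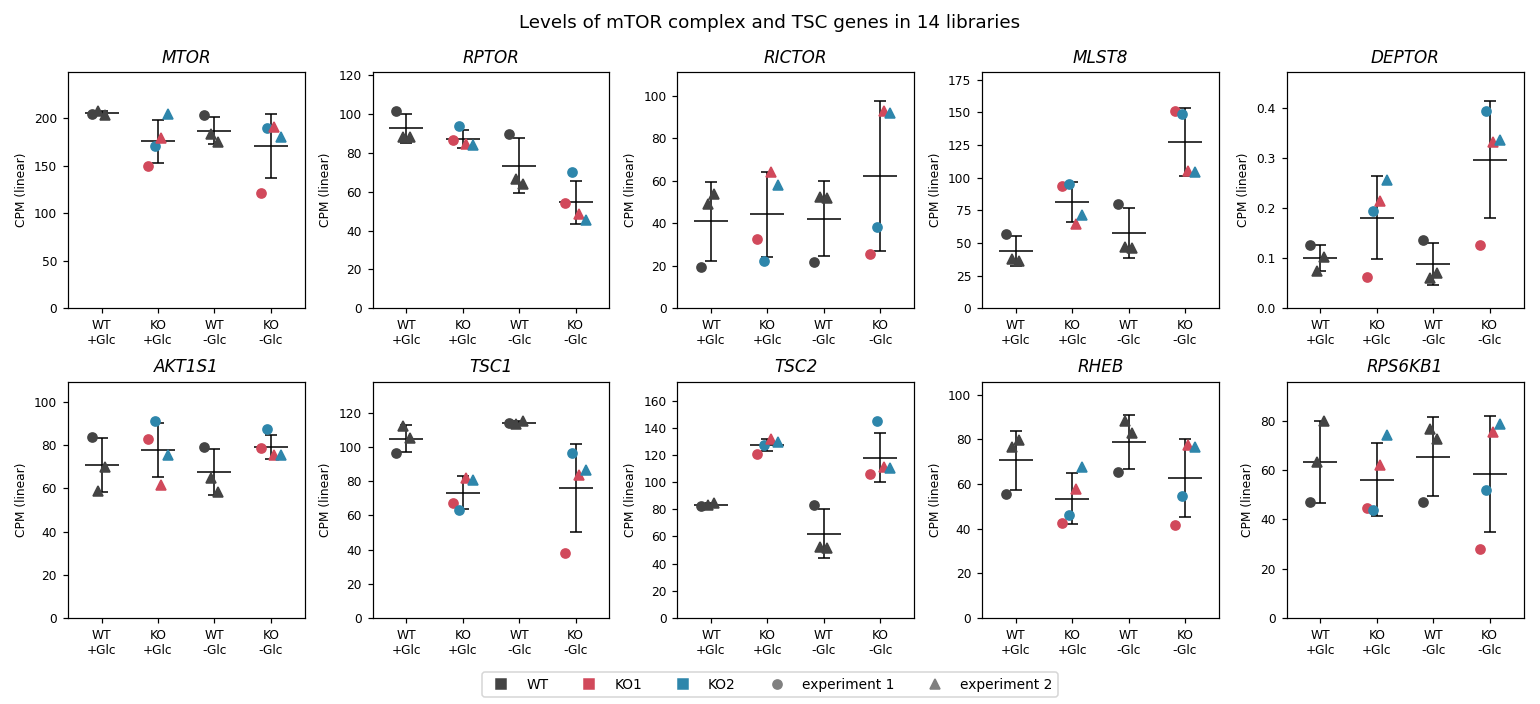
Level of each of the 10 genes in CPM (linear axis from 0) in KMT2D-WT and KMT2D-KO libraries with (+Glc) and without (-Glc) glucose. Points are libraries coloured by line and shaped by experiment, and the bars are the mean and SD of a group. The MLST8, TSC1 and TSC2 points of KMT2D-KO do not overlap those of KMT2D-WT in either condition. The share of all genes without such overlap was not counted.

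In cells kept in glucose, 4 of the 10 genes changed in KMT2D-KO. MLST8 and TSC2 were higher, TSC1 and RHEB were lower, and MTOR, RPTOR, RICTOR, DEPTOR, AKT1S1 and RPS6KB1 did not pass the test. The test was edgeR's quasi-likelihood test with experiment as a covariate and Benjamini-Hochberg adjustment over 20423 genes, of which 13% were called higher and 11.7% lower at an adjusted p under 0.05. In cells without glucose, 9 genes could be tested and 5 were called: MLST8, TSC2 and RICTOR were higher, and RPTOR and RHEB were lower. There the background was wider, with 25.9% of 16782 genes called higher and 24.9% called lower, so 5 of 9 was near the share of all genes.

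**Figure D2:**
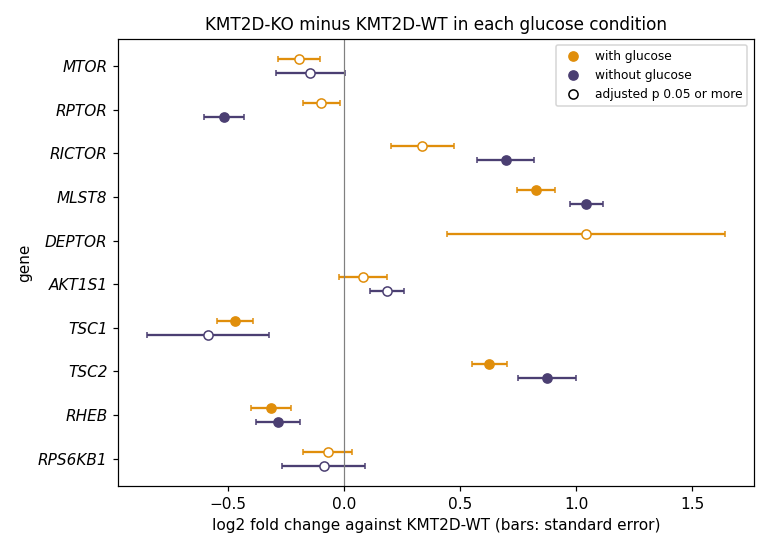
Log2 fold change of KMT2D-KO against KMT2D-WT for each gene with and without glucose, from the edgeR fit. Bars are standard errors and open points have an adjusted p of 0.05 or more; MLST8 and TSC2 lie right of 0 and RHEB left of 0 as filled points in both conditions, and DEPTOR has no point without glucose because its counts were too low to test.

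MLST8, the beta-propeller subunit that binds the kinase domain in both complexes, had the largest change among the called genes in both conditions. With glucose it had 56.9 CPM in the KMT2D-WT library of experiment 1 and 37.8 and 36.3 CPM in those of experiment 2. In the same condition KO1 and KO2 had 93.5 and 95.2 CPM in experiment 1 and 64.9 and 71.5 CPM in experiment 2. All KMT2D-KO libraries thus lay above all KMT2D-WT libraries. The share of all genes separated in this way was not counted, here or for the genes below. The difference was 0.83 ± 0.08 on the log2 scale (± SE), 1.77-fold, with an adjusted p of 2.24e-04 from edgeR. Without glucose MLST8 had 79.8 CPM in KMT2D-WT in experiment 1 and 47.3 and 46.1 CPM in experiment 2. The KMT2D-KO libraries had 151 and 149 CPM in experiment 1 and 105 and 104 CPM in experiment 2, again without overlap. The difference was 1.04 ± 0.07 (log2), 2.06-fold, with an adjusted p of 8.87e-05 from edgeR. Within experiments 1 and 2 the log2 difference was 0.73 and 0.88 with glucose and 0.91 and 1.16 without.

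TSC2, the subunit that carries the GTPase-activating domain, moved in the same direction as MLST8. It had 82.2 to 84.6 CPM in the 3 KMT2D-WT libraries with glucose and 120.6, 127.5, 131.5 and 129.2 CPM in the 4 KMT2D-KO libraries. All KMT2D-KO libraries lay above all KMT2D-WT libraries. TSC2 rose by 0.62 ± 0.08 (log2), 1.54-fold, with an adjusted p of 5.75e-04 from edgeR. Without glucose TSC2 had 82.9 CPM in KMT2D-WT in experiment 1 and 52.3 and 51.1 CPM in experiment 2. The KMT2D-KO libraries had 106 and 145 CPM in experiment 1 and 111 and 110.2 CPM in experiment 2, so the groups again did not overlap. Here TSC2 rose by 0.87 ± 0.13 (log2), 1.83-fold, with an adjusted p of 0.00139 from edgeR. It was 0.58 within experiment 1 and 1.10 within experiment 2.

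TSC1, the subunit that stabilises TSC2, moved the opposite way. With glucose it had 96.6 CPM in KMT2D-WT in experiment 1 and 112.5 and 105.2 CPM in experiment 2. KO1 and KO2 had 67.4 and 62.9 CPM in experiment 1 and 82.0 and 80.6 CPM in experiment 2, all below KMT2D-WT. The log2 fold change was -0.47 ± 0.08, 1.39-fold lower, with an adjusted p of 0.00266 from edgeR. Without glucose the 3 KMT2D-WT libraries had 113.7 to 115.3 CPM. The KO1 and KO2 libraries of experiment 1 had 38.0 and 96.5 CPM, and those of experiment 2 had 83.6 and 86.3 CPM. No KMT2D-KO library reached KMT2D-WT, but the KO1 library of experiment 1, the one that stood apart in KMT2D, widened the spread. Without glucose TSC1 was at -0.59 ± 0.26 (log2) with an adjusted p of 0.102 from edgeR, which misses the threshold. Leaving that library out gave -0.40 (adjusted p = 3.78e-07, edgeR), and leaving out its KO2 counterpart gave -0.83 (adjusted p = 0.0203, edgeR). Both fits lean more on the 2 close KMT2D-KO libraries of experiment 2. The share of all genes called in them is not given here. The 2 partners of the TSC complex had opposite signs in all 8 KMT2D-KO libraries. Against KMT2D-WT of the same experiment and condition, TSC2 was at 0.35 to 1.10 and TSC1 at -1.58 to -0.24 (log2). RPTOR, RICTOR, MLST8 and RHEB also kept 1 sign in all 8, and the share of all genes that do was not counted. The 8 libraries share their KMT2D-WT references and include the 2 close ones, so they are not independent.

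RHEB, the GTPase on which that complex acts, was lower by a smaller amount. With glucose it had 55.3 CPM in KMT2D-WT in experiment 1 and 76.8 and 79.6 CPM in experiment 2. KO1 and KO2 had 42.5 and 46.1 CPM in experiment 1 and 57.6 and 67.5 CPM in experiment 2. The groups overlapped as a whole, and within each experiment every KMT2D-KO library was below every KMT2D-WT library. The log2 fold change was -0.32 ± 0.09 with an adjusted p of 0.0292 from edgeR with glucose, and -0.29 ± 0.10 with an adjusted p of 0.0425 without. These were the calls that depended most on the settings: 8 of 18 alternatives with glucose and 13 of 18 without put the adjusted p past the threshold, all with the same sign. With glucose these included leaving out any KMT2D-WT library or the KO1 library of experiment 2, at -0.34 to -0.26 with adjusted p of 0.0858 to 0.14 from edgeR. Without glucose they included leaving out any KMT2D-WT library or either KMT2D-KO library of experiment 2, at -0.33 to -0.20 with adjusted p of 0.0728 to 0.252 from edgeR. RHEB has 3 numbered pseudogenes, with which its reads may be shared.

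The scaffold subunits that define the complexes had opposite signs in both conditions and were called only without glucose. Without glucose RICTOR, which defines mTORC2, had 21.6 CPM in KMT2D-WT in experiment 1 and 52.6 and 52.1 CPM in experiment 2. KO1 and KO2 had 25.5 and 38.0 CPM in experiment 1 and 92.7 and 91.8 CPM in experiment 2. All KMT2D-KO libraries were above KMT2D-WT of their own experiment, while the pooled groups overlapped because experiment 1 was low throughout. Without glucose RICTOR rose by 0.69 ± 0.12 (log2), 1.62-fold, with an adjusted p of 0.00352 from edgeR. With glucose RICTOR was 0.34 ± 0.14 with an adjusted p of 0.108 from edgeR, and all 4 KMT2D-KO libraries were again above KMT2D-WT of their experiment, at 22.4 to 64.0 CPM. Offsets for GC content or length put RICTOR past the threshold with glucose, at 0.38 and 0.40 (adjusted p = 0.0444 and 0.0493, edgeR).

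RPTOR, which defines mTORC1 and recruits its substrates, had 89.7 CPM in KMT2D-WT without glucose in experiment 1 and 66.3 and 64.0 CPM in experiment 2. KO1 and KO2 had 54.2 and 69.9 CPM in experiment 1 and 48.3 and 45.4 CPM in experiment 2, each below KMT2D-WT of its experiment. The log2 fold change was -0.52 ± 0.09, 1.43-fold lower, with an adjusted p of 0.00272 from edgeR. With glucose the values were 88.1 to 101.4 CPM in KMT2D-WT and 84.1 to 93.9 CPM in KMT2D-KO. Each KMT2D-KO library was again below KMT2D-WT of its experiment. The log2 fold change with glucose was -0.10 ± 0.08 with an adjusted p of 0.41 from edgeR. These fits count the close libraries of experiment 2 without glucose as separate. With them summed into 1 library per genotype (the close pairs), calls without glucose were lost. The adjusted p from edgeR was then 0.079 for RPTOR, 0.0828 for RICTOR and 0.0505 for TSC2.

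The kinase MTOR was not called in either condition. It had 203.7 to 207.5 CPM in KMT2D-WT and 149.7 to 204.5 CPM in KMT2D-KO with glucose, a log2 fold change of -0.20 ± 0.09 with an adjusted p of 0.159 from edgeR. Without glucose it was -0.15 ± 0.15 with an adjusted p of 0.436. RPS6KB1, the S6 kinase and a readout of mTORC1 activity through its phosphorylation, gave -0.07 ± 0.11 with glucose and -0.09 ± 0.18 without, with adjusted p of 0.673 and 0.697 from edgeR. AKT1S1, the AKT substrate that restrains mTORC1, gave 0.08 ± 0.10 with an adjusted p of 0.622 with glucose and 0.18 ± 0.07 with an adjusted p of 0.0733 without, from edgeR. Leaving out the KO1 library of experiment 1 gave AKT1S1 at 0.21 without glucose (adjusted p = 5.31e-04, edgeR). For DEPTOR, at 0.0614 to 0.255 CPM in KMT2D-KO and 0.074 to 0.127 CPM in KMT2D-WT with glucose, a difference was not detectable at this depth.

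TMM scaling raised the KMT2D-KO libraries without glucose, whose factors were 0.863 to 0.893 against 1.03 to 1.09 in KMT2D-WT. With library size as the only scaling, the median of all genes in that comparison was -0.25 (log2) in place of 0.0029, and 30.2% of the called genes were higher in place of 51%. Under that scaling MLST8 at 0.79, TSC2 at 0.62 and RICTOR at 0.44 were still called higher, and RPTOR at -0.77, RHEB at -0.54 and TSC1 at -0.84 lower, while AKT1S1 turned to -0.07.

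Whether the lines agreed was asked with glucose, where each line had a library in each experiment. MLST8 was 0.77 ± 0.08 (log2) above KMT2D-WT in KO1 and 0.87 ± 0.08 in KO2. TSC2 was 0.60 ± 0.08 and 0.64 ± 0.08 above, and TSC1 was -0.45 ± 0.08 and -0.50 ± 0.08. RHEB was -0.42 ± 0.08 in KO1 and -0.23 ± 0.08 in KO2. These 4 genes were called in each line, with adjusted p between 1.94e-07 and 0.037 from edgeR, where 32% of all genes were called in KO1 and 34.6% in KO2. MTOR was -0.30 ± 0.08 in KO1 with an adjusted p of 0.00695 and -0.10 ± 0.08 in KO2 with an adjusted p of 0.373. RICTOR was 0.47 ± 0.10 in KO1 with an adjusted p of 0.00163 and 0.16 ± 0.10 in KO2 with an adjusted p of 0.26. The comparisons of the 2 lines share the KMT2D-WT libraries.

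**Figure D3:**
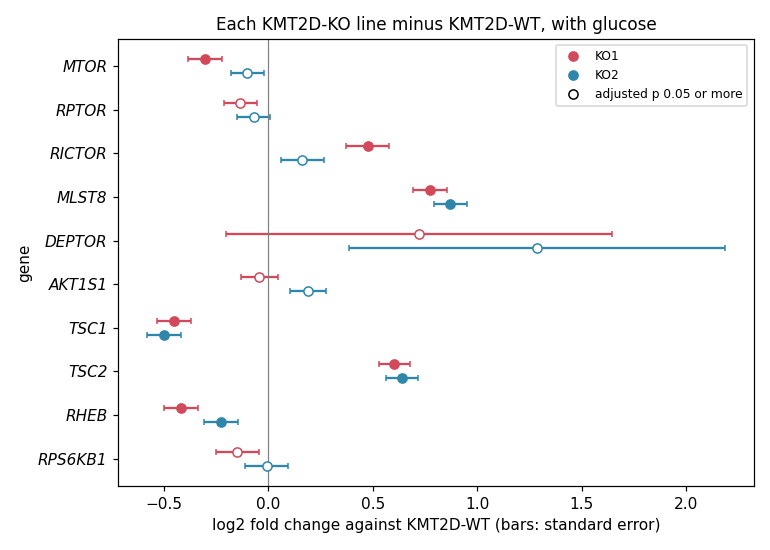
Log2 fold change of line KO1 and of line KO2 against KMT2D-WT with glucose, with standard errors. Filled points have an adjusted p under 0.05; MLST8, TSC1, TSC2 and RHEB are filled in each line, and MTOR and RICTOR in KO1 alone.

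The difference between the lines was then tested itself. None of the 10 genes was called in KO2 against KO1 by edgeR, where 7.4% of all genes were called higher and 7.32% lower, and DESeq2 also called 0. At an unadjusted p under 0.05 there were 4, namely MTOR, RICTOR, RHEB and AKT1S1. RICTOR had the smallest p, with KO2 below KO1 by -0.31 (log2, 95% interval -0.55 to -0.07) and an adjusted p of 0.0786 from edgeR. For MTOR the difference was 0.20 with an interval of 0.02 to 0.39 and an adjusted p of 0.147 from edgeR, so a difference between the lines was not called for either gene. RICTOR passed the threshold when the KMT2D-WT library of experiment 1, 1 KMT2D-WT library of experiment 2 or the KO1 library of experiment 2 was left out, at -0.32, -0.32 and -0.53 (adjusted p = 0.0461, 0.0308 and 0.0354, edgeR). Without that KMT2D-WT library of experiment 2, AKT1S1 also passed, at 0.22 (adjusted p = 0.0462, edgeR). The interval was -0.09 to 0.28 for MLST8, -0.14 to 0.21 for TSC2 and -0.23 to 0.14 for TSC1.

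The effect of glucose deprivation was tested in experiment 1, the one in which both conditions were counted alike. None of 9 genes was called by edgeR, against 0.479% of all genes called higher and 0.622% lower. MLST8 and RPTOR had an unadjusted p under 0.05, and DESeq2 called MLST8. MLST8 was higher without glucose in all 3 lines, by 0.49 in KMT2D-WT, 0.69 in KO1 and 0.64 in KO2, and in all by 0.58 ± 0.15 (log2) with an adjusted p of 0.0802 from edgeR. It was called when either KO1 library was left out, at 0.55 with adjusted p of 0.0263 and 0.0353 from edgeR. With line as a block, both of these fits rest on the KMT2D-WT and KO2 pairs, so they are not separate results. The number of all genes called also changed when libraries were left out, and no share of all genes is set beside these calls. RPTOR was lower in all 3, by -0.18, -0.67 and -0.43, and in all by -0.45 ± 0.16 with an adjusted p of 0.183. The other 7 genes lay between -0.16 and 0.16 with adjusted p from 0.686 to 0.998 from edgeR.

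Whether the knockout effect itself differed between the glucose conditions was tested over all 14 libraries. None of 9 genes was called by edgeR, where 4.73% of all genes were called higher and 6.54% lower. RPTOR had the only unadjusted p under 0.05, with its knockout effect lower without glucose by -0.39 (log2, 95% interval -0.67 to -0.12) and an adjusted p of 0.0652. DESeq2 called 2 genes, MLST8 and RPTOR, and it also called more of all genes than edgeR, as given at the end. The call of RPTOR and RICTOR without glucose and not with glucose is thus no called difference by edgeR. For RICTOR that difference was 0.39 with an interval of -0.07 to 0.84. The KO1 library of experiment 1 without glucose weighed on this comparison, and without it RICTOR at 0.50 (adjusted p = 0.0413), TSC2 at 0.39 (adjusted p = 0.00763) and RPTOR at -0.32 (adjusted p = 0.0313) were called by edgeR. Leaving out the KO2 library of experiment 1 without glucose also called RPTOR, at -0.44 (adjusted p = 0.0191, edgeR). The number of all genes called also changed when libraries were left out, as given at the end. No share of all genes is set beside these calls.

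TSC2 and MLST8 are neighbours. In GRCh38 TSC2 lies on chromosome 16 from 2047967 to 2089491 and MLST8 from 2204248 to 2209453, both on the plus strand and 115 kb apart. Centred within experiment and condition, their log2 CPM had a Pearson r of 0.96 over the 14 libraries, the highest of the 36 pairs among the 9 genes other than DEPTOR. This includes the genotype difference, and the points share depth and scaling. Of the 7 genes tested between them with glucose, 4 were called higher (PKD1, RAB26, SNHG19 and TRAF7) and 0 lower. Without glucose 4 could be tested and 2 were called higher, RAB26 at 0.96 and TRAF7 at 0.80, while PKD1 at -0.19 and SNHG19 at -0.38 did not pass the test (adjusted p = 0.598 and 0.0875, edgeR). Part of the exons of TSC2 overlaps PKD1, and part of MLST8 overlaps BRICD5, so without strand-specific counting reads at these ends cannot be told apart.

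Within 500 kb on either side of this pair, leaving out both genes, 36 of 74 genes tested were called higher with glucose and 1 lower. This was 48.6% higher, against 13% over all genes, and the median log2 fold change was 0.69 against 0.02. Without glucose 24 of 54 were higher and 3 lower, 44.4% against 25.9%, with a median of 0.60. In KO1 alone with glucose 37 of 76 were higher and 1 lower, and in KO2 alone 40 and 1 of 76, where 32% and 34.6% of all genes were called in either direction. The medians were 0.62 and 0.68, against 0.0080 and 0.015 over all genes. With glucose the higher values ran from the chromosome end, which lies about 2 Mb before the start of TSC2, to 2 Mb after it. The medians of genes in 1 Mb bins were 0.54, 0.70, 0.67 and 0.59 there, while the next bin had 0.13. Without glucose the medians were 0.75, 0.88 and 0.54 up to 1 Mb after the start, and -0.06 in the next bin. The same stretch holds other genes of the pathway. NPRL3, a GATOR1 subunit, was at 1.04 with glucose and 0.95 without, and TELO2, a co-chaperone that helps assemble mTOR kinase, was at 0.78 and 0.88, all called higher. WDR24, a GATOR2 subunit, at 0.54 and PDPK1, the kinase PDK1 that activates AKT, at 0.41 were called higher with glucose and were at 0.02 and 0.09 without. Neighbours within 500 kb of other members did not all go the way of the member. Around RPTOR without glucose 11 of 25 were lower and 2 higher, where 24.9% of all genes were lower. With glucose 2 of 37 were lower there and 1 higher. Around RHEB 5 of 16 were lower with glucose and 0 higher, where 11.7% of all genes were lower, and 5 of 14 lower without and 2 higher. Around RICTOR 4 of 8 were higher with glucose and 3 of 5 without, and 0 lower, where 13% and 25.9% of all genes were higher. Around TSC1, itself below 0, 2 of 20 were higher and 1 lower with glucose, and 6 of 17 higher and 3 lower without. Around MTOR, also below 0, 6 of 16 were higher and 1 lower without glucose. Whether position had a part in the values of these genes, or of TSC2 and MLST8 on chromosome 16, was not tested.

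**Figure D4:**
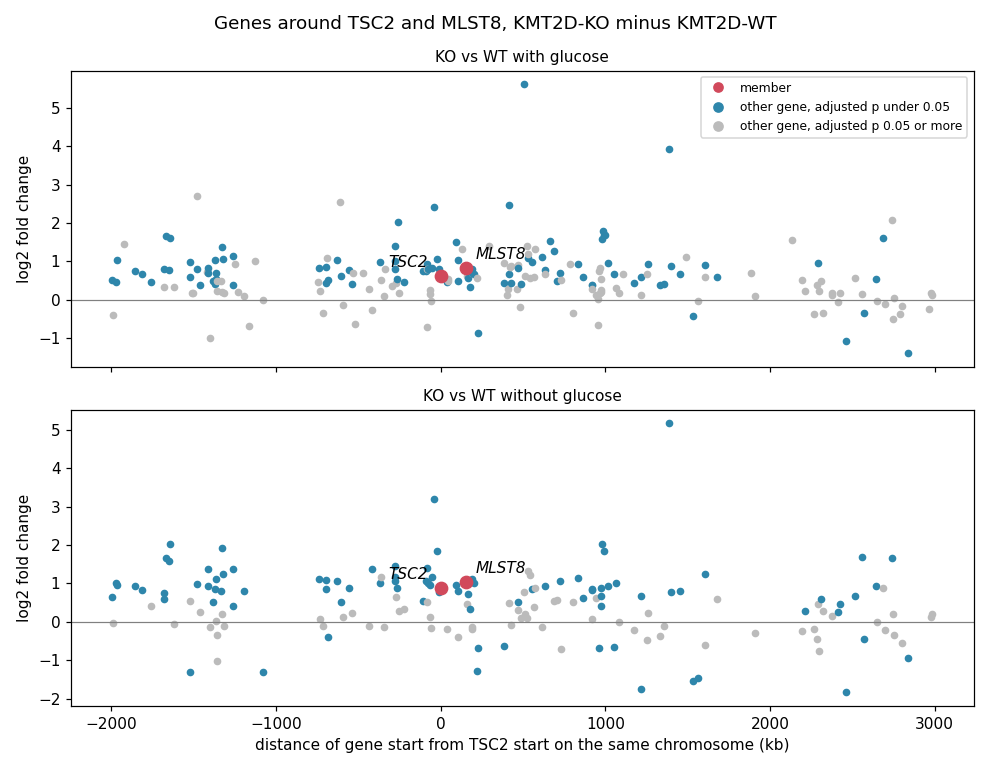
Log2 fold change of KMT2D-KO against KMT2D-WT for genes on chromosome 16, by the distance of their start from the start of TSC2 in kb, with glucose (top) and without (bottom). Most points from 2 Mb before to 1 Mb after TSC2 lie above 0 in each panel, and TSC2 and MLST8 lie among them.

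Promoter sequence upstream of the start site was at hand for some of the changed genes from RefSeq (GRCh38.p14), whose table held 7 of the 10. It is shown for TSC2, called in both conditions, and for RICTOR and RPTOR, called with opposite signs without glucose. Capitals mark a match to the E-box CACGTG or to the ETS core CCGGAA on either strand, which do not overlap each other.
TSC2, chr16:2047867-2047966, plus strand: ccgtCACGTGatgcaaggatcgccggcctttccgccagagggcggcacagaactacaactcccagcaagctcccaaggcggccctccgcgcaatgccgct
RICTOR, chr5:39074400-39074649, minus strand: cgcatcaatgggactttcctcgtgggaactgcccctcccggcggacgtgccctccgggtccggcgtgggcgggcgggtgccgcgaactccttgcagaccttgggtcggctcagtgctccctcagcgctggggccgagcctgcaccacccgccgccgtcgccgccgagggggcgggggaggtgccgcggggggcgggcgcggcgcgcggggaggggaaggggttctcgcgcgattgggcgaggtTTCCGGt
RPTOR, chr17:80544588-80544818, plus strand: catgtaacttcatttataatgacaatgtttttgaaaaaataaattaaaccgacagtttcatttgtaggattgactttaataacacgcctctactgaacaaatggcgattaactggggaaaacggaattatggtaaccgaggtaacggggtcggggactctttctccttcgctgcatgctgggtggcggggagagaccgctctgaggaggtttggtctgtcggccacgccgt
The stretches end at the base before exon sequence. In the full windows of 300 bases, TSC2 alone of the 7 held the E-box, which 7.26% of 35116 promoters hold. The ETS core was found in TSC2, RICTOR and TSC1, against 17.2% of promoters. The YY1 motif AANATGGCG was found in RICTOR, TSC1 and RPTOR, against 3.19%. The YY1 matches of RICTOR and RPTOR and the ETS matches of TSC2 lay outside the printed stretches, and the full windows also hold exon sequence. MTOR, RHEB and RPS6KB1 held none of the 3. A match is a run of letters and not a measured site.

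The wider pathway was read in 6 lists of 79 genes. With glucose 21 of 73 tested were higher and 12 lower, where 13% and 11.7% of all genes were, with a median log2 fold change of 0.09 against 0.02 over all genes. Without glucose 26 of 71 were higher and 17 lower, where 25.9% and 24.9% of all genes were, with a median of 0.12 against 0.0029, so the lower count was near the share of all genes. The genes higher with glucose include NPRL3, TELO2, WDR24 and PDPK1 of the chromosome 16 stretch described above, where more genes were higher than over all genes. Those higher without glucose include NPRL3 and TELO2. The part of that stretch in these counts and in those of single lists was not tested. The counts of single lists below are to be read against these shares. Each value given for a pathway gene below had an adjusted p under 0.05 from edgeR in that comparison.

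**Figure D5:**
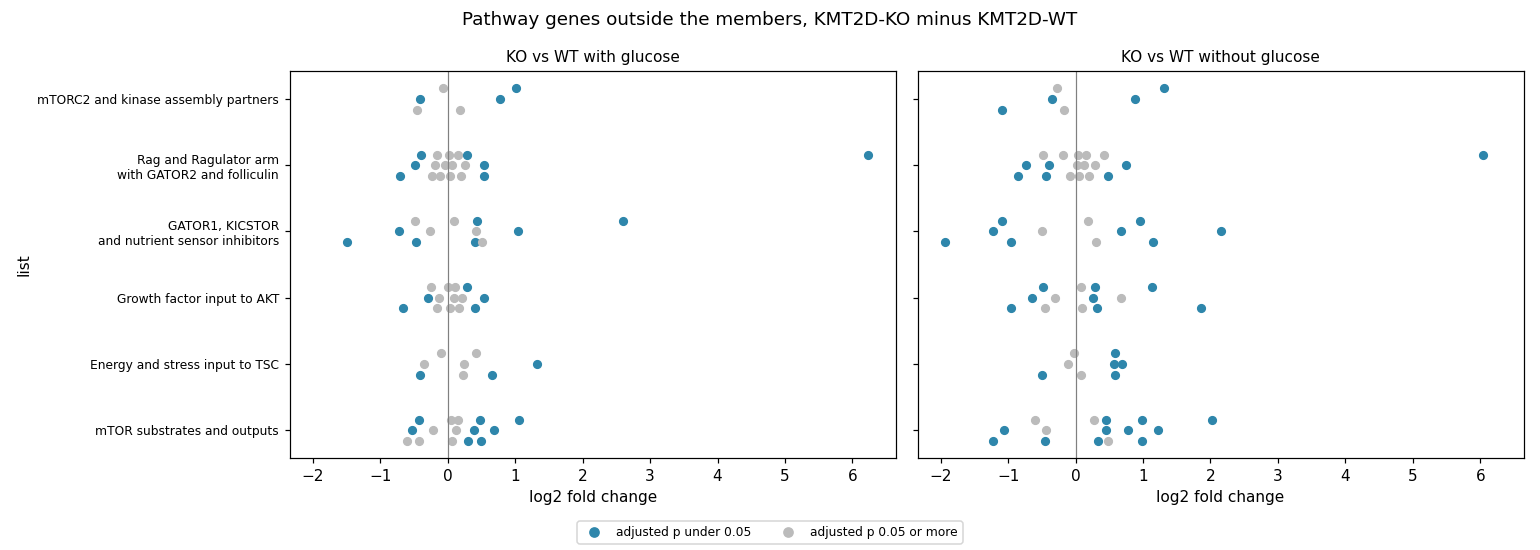
Log2 fold change of KMT2D-KO against KMT2D-WT for the pathway genes outside the 10, in 6 lists, with glucose (left) and without (right). Each point is a gene and blue points have an adjusted p under 0.05; the point beyond 6 in each panel is RRAGD, which was nearly at 0 in KMT2D-WT, and each list holds genes on either side of 0.

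Among partners of mTORC2 and of kinase assembly, 2 of 6 were higher and 1 lower with glucose, and 2 higher and 2 lower without. PRR5, an mTORC2 subunit also called Protor-1, was 1.01 ± 0.17 (log2) with glucose and 1.31 ± 0.13 without. MAPKAP1, the mTORC2 core subunit mSIN1, was -0.41 ± 0.08 with glucose. PRR5L, the other Protor, was -1.09 ± 0.11 without glucose.

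In the amino acid arm, the Rag and Ragulator list had 4 of 18 higher and 3 lower with glucose and 3 higher and 4 lower without. RRAGD, a Rag GTPase, had 0 to 4 counts in each KMT2D-WT library and 0.765 to 6.33 CPM in KMT2D-KO. FNIP1, a partner of folliculin, was -0.71 ± 0.10 with glucose, and FNIP2 was -0.86 ± 0.22 without. The GATOR1 and sensor list had 4 of 12 higher and 3 lower with glucose and 4 of 11 higher and 4 lower without. DEPDC5, the GATOR1 subunit that contacts the Rag GTPases, was -1.49 ± 0.12 with glucose and -1.93 ± 0.12 without, 2.82-fold and 3.82-fold lower. Its partner NPRL3 moved the other way, as given above. SESN3, a sestrin, was 2.60 ± 0.34 with glucose at 0.919 to 3.78 CPM in KMT2D-KO, and SESN2, a stress-induced leucine sensor, was 1.15 ± 0.12 without.

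Among inputs from growth factors, 3 of 14 were higher and 2 lower with glucose, and 5 of 13 higher and 3 lower without. INSR, the insulin receptor, was -0.66 ± 0.12 with glucose and -0.96 ± 0.11 without. IGF1R was 0.54 ± 0.15 with glucose, and the adaptor IRS1 was 1.86 ± 0.50 without. IRS1 ran from 45.9 to 252.6 CPM in KMT2D-KO without glucose, against 43.2 to 48.2 CPM in KMT2D-WT, so the ranges overlapped. Among energy and stress inputs to TSC, 2 of 8 were higher and 1 lower with glucose, and 4 of 8 higher and 1 lower without. DDIT4 (REDD1), a stress-induced inhibitor that acts through TSC2, had 15.2 ± 9.22 CPM in KMT2D-WT and 39.6 ± 12 CPM in KMT2D-KO with glucose, 1.32 ± 0.19 on the log2 scale, and it was 0.68 ± 0.06 without. PRKAG2, an AMPK regulatory subunit, was -0.41 ± 0.11 and -0.49 ± 0.09.

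Among substrates and outputs, 6 of 15 were higher and 2 lower with glucose, and 8 of 15 higher and 3 lower without. LARP1, which binds the mRNAs that mTORC1 controls, was 1.06 ± 0.08 with glucose. EIF4EBP2, a translation repressor and mTORC1 substrate, was -0.53 ± 0.08 with glucose. SGK1, an mTORC2 substrate, rose 4.05-fold without glucose to 205 ± 54.3 CPM against 48.4 ± 1.16 CPM in KMT2D-WT, and LPIN1, an mTORC1 substrate, was -1.22 ± 0.37.

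In the test of deprivation in experiment 1, 4 of 72 were higher and 0 lower, against 0.479% and 0.622% of all genes, among them DDIT4 at 1.48 ± 0.16, SESN2 at 1.59 ± 0.20 and SGK1 at 2.28 ± 0.33. In the test of the difference of the knockout effects, 6 of 72 were higher and 3 lower, against 4.73% and 6.54% of all genes. Among the largest in each direction within a list were SGK1 at 1.92 ± 0.30 and SESN2 at 0.77 ± 0.18, and EIF4EBP2 and TTI1 at -0.51 ± 0.11 and -0.51 ± 0.12. Between the lines with glucose, 9 of 73 were higher in KO2 and 5 lower, against 7.4% and 7.32% of all genes, the lower count at about that share. LPIN1 was -1.46 ± 0.13 and RRAGD -2.64 ± 0.35 in KO2 against KO1, and PRR5L at 0.64 ± 0.17, IRS1 at 0.62 ± 0.10, LAMTOR2 at 0.45 ± 0.11, EIF4B at 0.39 ± 0.09 and PRKAB1 at 0.37 ± 0.11 were higher.

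The genes most like MTOR were sought among 9495 genes with a mean of at least 10 CPM, by Pearson r of log2 CPM centred within experiment and condition over the 14 libraries. They were SH3BP5L at 0.98, PTPRF and DOCK1 at 0.97, and LRRK1 and PTPN23 at 0.96. Of the other members, RHEB at 0.86, TSC1 at 0.85 and RPS6KB1 at 0.82 were nearest to MTOR, and TSC2 at -0.16 and MLST8 at -0.37 were farthest. MTOR, RHEB, TSC1 and RPS6KB1 were all lowest in the KO1 library of experiment 1 without glucose, at 120.8, 41.6, 38.0 and 28.0 CPM.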

How the data were processed

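Per the labels and the study's methods, the authors aligned reads to GRCh38 with HISAT2 and counted them per gene name with featureCounts version 2.0.3 and Ensembl annotation 102, without strand. The deposited values are raw counts, 1 file per library. The authors' commands in the file headers show that the 4 experiment 2 libraries with glucose were counted with both mates. The lowest and highest totals were 15669154 and 62968057. Groups, lines and experiments came from the sample titles. The labels do not say whether libraries of a group are separate cultures, so p-values measure the spread between these libraries, which may be technical.

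From the counts, edgeR 4.0.16 in R 4.3.3 was run on all genes (filterByExpr with a minimum count of 10, TMM, quasi-likelihood test, Benjamini-Hochberg adjusted p under 0.05). KMT2D-KO was compared with KMT2D-WT in each glucose condition with experiment as a covariate, which serves as the block that pairs libraries of an experiment. The experiment differences of KMT2D-WT and KMT2D-KO correlated over genes with an r of 0.946 with glucose and 0.862 without. Also tested were the difference of the 2 knockout effects over 14 libraries, deprivation in experiment 1 with line as a block, and KO2 against KO1 with glucose. DESeq2 1.42.0, other scalings, no filter, no block, single experiments, halved counts of the both-mate libraries, summed close pairs and leaving out each library were alternatives. Offsets for GC content and length were added after seeing the data. The fit was tested on simulated data. SEs come from the F statistic, and intervals are 95% with edgeR's moderated degrees of freedom. Log2 CPM carried an offset of 0.1.

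Named are all 10 genes in every comparison, KMT2D, in each pathway list the gene with the largest change in each direction among called genes with a mean of at least 1 CPM, and the 5 genes most like MTOR. A pathway gene that this rule names is not reported here. Genes of chromosome 16 were chosen after their values were seen. The members and lists were chosen with earlier results of these data known. Coordinates are those of the count files' annotation, GRCh38.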

Additional observations from a re-analysis of the deposited data

Results flagged for a closer look

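In the 20 groups of 4 KMT2D-KO libraries examined (10 genes in 2 glucose conditions), 2 had a library far from the other 3. For 4 independent libraries of 1 kind, chance alone gives about 1 such group in 20. That rate does not apply here, because each group mixes 2 lines and 2 experiments and the 10 genes share the libraries. Without glucose the 2 libraries of experiment 2 were also close to each other. MTOR had 120.8 CPM in the KO1 library of experiment 1 without glucose, below 181 to 191 CPM in the other 3. TSC2 had 145.0 CPM in the KO2 library of experiment 1 without glucose, above 106 to 111 CPM in the other 3.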

How the results depend on the processing

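In KMT2D-KO against KMT2D-WT, MLST8, TSC2 and RICTOR stayed above 0 and RHEB, TSC1 and RPTOR below 0 under all 18 alternatives in each glucose condition. With glucose MLST8 ranged from 0.73 to 0.92 and TSC2 from 0.57 to 0.71, and without glucose from 0.79 to 1.19 and from 0.60 to 1.13. Without the replicate block (experiment left out), 1 of the 10 genes was called with glucose and 971 of all genes, and 2 and 3659 without glucose, where the fits with experiment called 4 and 5042, and 5 and 8521. The calls lost were MLST8 at 0.90 (adjusted p = 0.0667, edgeR), TSC1 at -0.51 (adjusted p = 0.104, edgeR) and RHEB with glucose, and RPTOR, RICTOR and RHEB without. Without the block 70 genes were called for the difference of the knockout effects, 11 for KO2 against KO1, and 0 for deprivation in experiment 1 with line left out, where TSC1 was at 0.11. DESeq2 with no experiment term called 2572 genes with glucose, and without glucose 2 of the 10 genes and 4821 of all. Experiment 1 alone called 0 of the 10 genes and 304 of all genes with glucose, and 0 and 0 without, where it has 1 KMT2D-WT library. Experiment 2 alone called 2 of the 10 genes and 2336 of all with glucose, and 12888 of all without, where MTOR was at 0.0054 and RPS6KB1 at 0.00017 (log2). Summing the close pairs of experiment 2 called 1 of the 10 genes and 2785 of all without glucose, and 258 of all for the difference of the knockout effects, where RPS6KB1 was at -0.032. Fewer libraries enter single experiments and summed pairs. For the other settings the cause was not tested.

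Signs turned among genes that had not been called. With library size only, AKT1S1 without glucose was at -0.072, and in the difference of the knockout effects, where 1 of the genes was called, MTOR was at -0.15, AKT1S1 at -0.10, RHEB at -0.17 and RPS6KB1 at -0.22. The same scaling gave RHEB at -0.012 and 44 genes called for deprivation, and RPTOR at -0.011, TSC2 at -0.039 and 1 of the 10 genes called for KO2 against KO1. The GC content offset put RPS6KB1 without glucose at 0.032, and the length offset put MTOR at 0.057 and RPS6KB1 at 0.042. For deprivation, RLE size factors called 329 genes, with TSC1 at 0.031 and TSC2 at 0.015. With no filter 1158 were called, with 1 of the 10 genes and TSC1 at 0.013, and no filter called 1 of the 10 genes for KO2 against KO1. DESeq2 called 633 for deprivation, with 1 of the 10 genes, TSC1 at 0.029 and TSC2 at 0.015, and 3473 for the difference of the knockout effects, with 2 of the genes. All 14 libraries called 8111 for deprivation, with 3 of the 10 genes, TSC1 at 0.088 and RPS6KB1 at 0.031, but there glucose cannot be told apart from the counting of both mates in experiment 2.

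Leaving out each library in turn, all genes called ranged from 2142 to 5048 with glucose, from 788 to 4230 for the difference of the knockout effects, from 162 to 1336 for deprivation and from 1094 to 3974 for KO2 against KO1. The genes called among the 10 ranged from 0 to 3, from 0 to 1 and from 0 to 2 in the last 3. The count moved by over 1.5 times without each KMT2D-WT library with glucose; for deprivation without each KMT2D-WT or KO1 library; for KO2 against KO1 without each KMT2D-KO library; and for the difference of the knockout effects without each KMT2D-WT library, the KO1 library of experiment 1 without glucose or either KMT2D-KO library of experiment 2 without glucose. RPS6KB1 ranged from -0.15 to 0.019 with glucose and from -0.23 to 0.032 without. In the difference of the knockout effects MTOR ranged from -0.020 to 0.26, TSC1 from -0.31 to 0.12 and RPS6KB1 from -0.11 to 0.16. For deprivation MTOR ranged from -0.17 to 0.056, RICTOR from -0.12 to 0.44, TSC1 from -0.30 to 0.41, TSC2 from -0.10 to 0.082 and RPS6KB1 from -0.34 to 0.11. For KO2 against KO1 RPTOR ranged from -0.020 to 0.16, TSC1 from -0.11 to 0.0015 and TSC2 from -0.025 to 0.10. Where an arm was left with 1 library, that library is assumed to vary like the others. Depth limits DEPTOR, with 1 to 15 counts per library.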
